A study of Mus musculus with 12 samples.

Results

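The 7 genes described here are Tcf15, Meox2, Gpihbp1, Lpl, Cd36, Fabp4 and Fabp5, the TCF15-MEOX2 pair of endothelial transcription factors and genes that carry fatty acids from blood across the heart's capillaries. They were taken by name from 52858 gene rows, and all 7 were among the 15258 genes with enough reads to be tested. They were chosen by the difference of Tcf15 between C57-IR and C57-non-IR hearts in these same data, where it was lower after ischemia, so their values in IR against non-IR hearts are given as a description, without a test. RNA was sequenced from isolated hearts of adult male mice in 4 groups of 3. C57BL/6J hearts, the background strain, were perfused throughout (C57-non-IR) or stopped by global no-flow ischemia and reperfused (C57-IR), and Slit2-Tg hearts were treated in the same ways (Slit2-non-IR and Slit2-IR). The sample labels give the genotype, and ischemia-reperfusion (IR) was taken from the second letter of each title, which was set against the groups in the study's methods. Slit2-Tg mice carry a human full-length Slit2 cDNA under the CMV promoter, which is not limited to a cell type, and the line was made in oocytes of a C57 and CBA cross. All hearts were perfused with buffer holding glucose and pyruvate and no blood. Transcript levels are FPKM, fragments scaled to gene length and to the library's depth.

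Cardiac muscle draws most of its fuel from fatty acids, which must first cross the endothelium of the capillaries. Lipoprotein lipase (Lpl), made mainly by cardiomyocytes, releases fatty acids from triglyceride-rich lipoproteins, and Gpihbp1, a protein of capillary endothelium, binds the lipase, carries it to the luminal surface and anchors it there. Cd36 takes up fatty acids at the membrane of endothelial cells and cardiomyocytes, and the fatty acid binding proteins Fabp4 and Fabp5 carry them through the endothelial cytoplasm. Tcf15, a basic helix-loop-helix (bHLH) factor, and Meox2, a homeobox factor, form a heterodimer that is known to drive Cd36 and Lpl expression in heart endothelium. Fabp4, Cd36 and Lpl are also expressed in adipocytes and Fabp5 and Cd36 in macrophages, so that in whole hearts none of them marks endothelium alone.

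Promoter sequences of 2 of the 7 genes, Meox2 and Cd36, were matched in RefSeq for build GRCm38.p6. They are shown because Meox2 is a partner of the dimer and Cd36 is a gene the dimer acts on. Each run below is the 250 bases before the start, 5′ to 3′ on the gene's strand, and capitals mark the matches, on either strand, to the bHLH core CANNTG and the homeobox core TAAT.
Meox2 (chr12:37108290-37108539, plus strand): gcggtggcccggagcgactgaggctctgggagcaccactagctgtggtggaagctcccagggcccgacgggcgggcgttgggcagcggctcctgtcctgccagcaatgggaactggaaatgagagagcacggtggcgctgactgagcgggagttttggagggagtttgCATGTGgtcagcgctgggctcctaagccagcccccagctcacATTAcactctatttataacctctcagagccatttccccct
Cd36 (chr5:17835897-17836146, minus strand): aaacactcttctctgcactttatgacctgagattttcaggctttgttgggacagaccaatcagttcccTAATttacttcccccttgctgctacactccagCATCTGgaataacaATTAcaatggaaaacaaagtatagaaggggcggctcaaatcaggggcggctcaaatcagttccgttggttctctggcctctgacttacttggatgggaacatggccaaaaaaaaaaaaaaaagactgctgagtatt
The Meox2 window holds 1 CANNTG and 1 TAAT match, and the Cd36 window 1 and 2, none of which overlap. Of 32817 promoter windows of the same length, 66.2% held CANNTG and 54.9% held TAAT, and a match describes the letters only. The PPAR-type direct repeat was in neither window and in 0.0335% of all of them. The Cd36 start lies inside the annotated gene, which spans chr5:17781690-17888801.

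The 7 genes cover levels from very high to modest. Coordinates in the files are those of GRCm38. Lpl (ENSMUSG00000015568, chr8:68880491-68907448) and Cd36 (ENSMUSG00000002944) had median FPKM of 454 and 433 over the 12 libraries, ranking 99 and 109 among 15258 genes. Fabp4 (ENSMUSG00000062515, chr3:10204088-10208576) had a median of 152. Tcf15 (ENSMUSG00000068079, chr2:152143561-152149097) had 50.3 and Gpihbp1 (ENSMUSG00000022579, chr15:75596628-75599481) 42.3. Fabp5 (ENSMUSG00000027533, chr3:10012548-10016607), which lies near Fabp4, had 10.8, and Meox2 (ENSMUSG00000036144, chr12:37108540-37179534) had 8.07. Tcf15 therefore stood above its dimer partner in FPKM in every library. The lengths used by the authors equal the union of all annotated exons, retained introns included, which for Fabp4 is 4489 bases against 896 in its main messenger RNA and for Gpihbp1 2554 against 825. Rescaled to the main messenger RNA, the medians were 1155 for Lpl, 761 for Fabp4, 516 for Cd36, 131 for Gpihbp1, 50.3 for Tcf15, 39.1 for Fabp5 and 8.07 for Meox2, so that Fabp4 passed Cd36 and Gpihbp1 passed Tcf15. This choice of length does not touch comparisons of 1 gene between libraries. Fabp5 has processed copies in the mouse genome, and how reads shared with them were counted is not given in the sources used here.

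The libraries held 16601154 to 24841291 recovered reads on genes, of which 19.7% to 26% were mitochondrial, and the 7 genes had between 215 reads (Meox2) and 121230 reads (Lpl) in a library. The endothelial label was checked on 24 endothelial markers, all of which were expressed, with summed FPKM of 437 to 772. The 4 libraries numbered 1 stood apart. In each of the 4 groups they had the lowest macrophage and fibroblast and mural marker sums and the highest cardiomyocyte marker sum, and in all groups but C57-non-IR also the lowest endothelial marker sum, 437, 459 and 443 against 665 to 772 in the other libraries of those groups. Library 1 of the Slit2-IR group also had an atrial marker sum of 1766, against 28.0 to 248 in the other 11 libraries. The endothelial sums overlapped in all 4 comparisons of genotype or IR. They were 648 to 748 FPKM in C57-non-IR and 437 to 772 in C57-IR hearts. In Slit2-Tg hearts they were 459 to 665 without IR and 443 to 672 after IR. Exact permutation tests gave two-sided p of 0.3 to 1. With 3 libraries in each group the smallest possible p is 0.1, so these tests cannot decide whether the sum differed between groups. In whole hearts, fewer endothelial cells and less RNA per endothelial cell cannot be told apart. The mouse Slit2 row read 0.195 ± 0.0233 FPKM in C57-non-IR, 0.243 ± 0.0348 in C57-IR, 0.178 ± 0.00799 in Slit2-non-IR hearts, with 0.35 ± 0.402 in the Slit2-IR group (SD, n = 3), and since the transgene is a human sequence this row is no check of the genotype labels.

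Tcf15 was the member with the widest spread between groups. Its FPKM was 117, 81 and 77.1 in the C57-non-IR libraries and 48.4, 46.8 and 35 in the C57-IR libraries. In Slit2-Tg hearts it was 51.7, 49.6 and 59.2 without IR and 39.2, 50 and 50.7 after IR. All 3 C57-non-IR libraries lay above the 9 others. Among those, Slit2-IR overlapped with both other groups, and C57-IR lay below Slit2-non-IR, at 48.4 against 49.6 FPKM for the nearest libraries. Over all tested genes, 118 (0.773%) had every C57-non-IR library above the 9 others. Nothing is read from this share, because Tcf15 was chosen on part of these values. The order of group means was C57-non-IR (91.6 ± 21.9, SD, n = 3), Slit2-non-IR (53.5 ± 5.01), Slit2-IR (46.6 ± 6.47) and C57-IR (43.4 ± 7.31), and only the first step in it exceeded the spread of the libraries. On the log2(FPKM + 1) scale the IR hearts were lower by 1.05 ± 0.18 (SE) in C57BL/6J, the difference behind the choice of these genes, and by 0.20 ± 0.18 in Slit2-Tg. The difference between these responses was 0.85 ± 0.25. Scaled to total reads on nuclear genes, the Slit2-IR libraries (36.0 to 51.4) no longer overlapped with Slit2-non-IR (52.0 to 62.0), and the C57BL/6J groups still did not overlap. That scaling moved the median IR difference of all tested genes in Slit2-Tg from 0.005 to -0.055, and all 7 members were lower there. The share of all genes without overlap was not counted under it, so nothing is read from this gap.

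**Figure D1:**
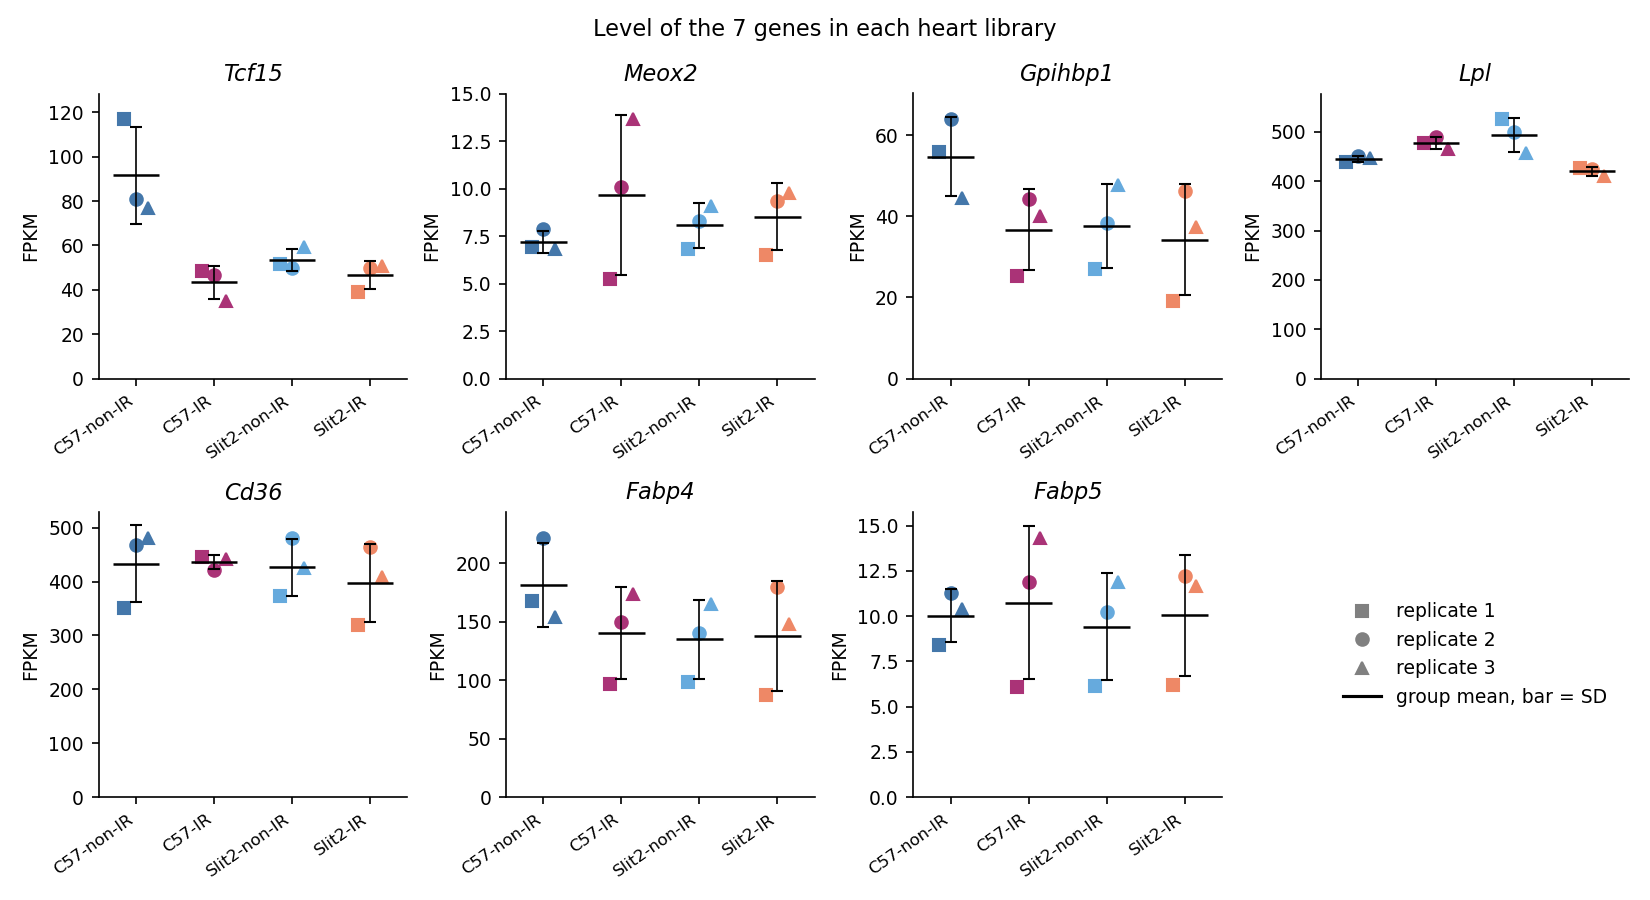
FPKM (y axis, from 0) of the 7 genes in the 12 heart libraries by group, with the marker shape giving the replicate number, a line at the group mean and bars of 1 SD. The 3 C57-non-IR libraries of Tcf15 lie above the other 9, while the libraries numbered 1 (squares) are the lowest of their group for Fabp5 in all 4 groups and for Meox2, Gpihbp1, Cd36 and Fabp4 in 3 of 4.

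Without IR, Tcf15 was lower in Slit2-Tg than in C57BL/6J hearts by 0.74 on the log2 scale (SE 0.18, 95% interval -1.13 to -0.35), with a ratio of mean FPKM of 0.584, and all 3 Slit2-non-IR libraries were below all 3 C57-non-IR libraries. The unadjusted p of limma's moderated test was 0.00151 and the adjusted p 0.657, so the difference did not pass the threshold of 0.05. This comparison shares the 3 C57-non-IR libraries with the one that led to the choice of Tcf15, and is no independent evidence. After IR the Slit2-Tg minus C57BL/6J difference was 0.11 ± 0.18 (95% interval -0.28 to 0.50, adjusted p = 1, limma), with overlapping groups. With the endothelial marker level as a covariate its IR difference in C57BL/6J hearts was -1.03 and its genotype difference without IR -0.70. Without the 4 libraries numbered 1 these were -0.95 and -0.54.

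Meox2, the homeobox partner, did not share this pattern. Its FPKM was 6.94, 7.85 and 6.81 in C57-non-IR, 5.22, 10.1 and 13.7 in C57-IR, 6.8, 8.29 and 9.11 in Slit2-non-IR and 6.51, 9.33 and 9.75 in Slit2-IR libraries. All groups overlapped, and the C57-IR group, whose library 1 was the lowest and whose library 3 was the highest of all 12, had the widest range. The Slit2-Tg minus C57BL/6J difference was 0.14 ± 0.26 without IR (95% interval -0.43 to 0.71) and -0.09 ± 0.26 after IR (-0.66 to 0.48), with adjusted p-values of 1 (limma). With the endothelial marker level as a covariate these were 0.45 ± 0.15 and -0.05 ± 0.14, and the IR difference in C57BL/6J hearts was 0.47 ± 0.14. Without the libraries numbered 1 the genotype differences were 0.22 ± 0.14 and -0.28 ± 0.14. The IR difference was 0.29 ± 0.26 in C57BL/6J and 0.06 ± 0.26 in Slit2-Tg hearts, and without the libraries numbered 1 it was 0.62 ± 0.14 and 0.12 ± 0.14. The ratio of Tcf15 to Meox2 FPKM ranged from 10.3 to 16.8 in C57-non-IR, 2.56 to 9.26 in C57-IR, 5.99 to 7.61 in Slit2-non-IR and 5.2 to 6.01 in Slit2-IR hearts. The 3 C57-non-IR ratios were above all others, as the Tcf15 values alone were.

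Gpihbp1, the endothelial anchor of the lipase, had FPKM of 55.8, 63.9 and 44.6 in C57-non-IR and 25.4, 44.4 and 40.2 in C57-IR libraries. The C57-IR libraries were all below the C57-non-IR libraries, with 44.4 against 44.6 FPKM at the nearest libraries. In Slit2-Tg hearts it was 27.1, 38.3 and 47.6 without IR and 19.2, 46.3 and 37.3 after IR, which overlapped with each other and with C57-IR. The IR difference was -0.59 ± 0.32 in C57BL/6J and -0.18 ± 0.32 in Slit2-Tg hearts. Slit2-Tg hearts differed from C57BL/6J by -0.55 ± 0.32 without IR (95% interval -1.25 to 0.15, adjusted p = 1, limma) and by -0.14 ± 0.32 after IR (-0.84 to 0.56, adjusted p = 1). Endothelial markers moved with these values. With their level as a covariate the genotype difference without IR was -0.14 and the IR difference in C57BL/6J hearts -0.36, and without the libraries numbered 1 these were -0.32 and -0.33.

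Lpl, the lipase itself, was the steadiest member within groups. It had 439, 450 and 446 FPKM in C57-non-IR, 477, 490 and 464 in C57-IR, 525, 500 and 457 in Slit2-non-IR and 427, 424 and 410 in Slit2-IR libraries. The groups did not overlap in any of the 4 comparisons. After IR it was higher in C57BL/6J hearts, by 0.10 ± 0.09, and lower in Slit2-Tg hearts, by 0.23 ± 0.09. Slit2-Tg hearts stood above C57BL/6J hearts without IR, by 0.15 ± 0.09 (95% interval -0.04 to 0.34), and below them after IR, by 0.18 ± 0.09 (-0.37 to 0.01), with adjusted p-values of 1 (limma). The interaction of genotype and IR was -0.33 ± 0.12 (95% interval -0.60 to -0.06), with an unadjusted p of 0.022 and an adjusted p of 1 (limma). It lay between -0.39 and -0.29 over 22 alternative settings, with unadjusted p-values of 0.00851 to 0.0556. Over all tested genes, 25 (0.164%) had IR groups without overlap in opposite directions in the 2 genotypes. Scaled to reads on nuclear genes in place of the authors' size factors, the C57-IR libraries (455 to 469) overlapped with C57-non-IR (435 to 473), while the other 3 comparisons stayed without overlap.

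Cd36, the membrane fatty acid transporter that the dimer is known to drive, differed little between the groups. Its FPKM was 350, 469 and 481 in C57-non-IR, 445, 422 and 441 in C57-IR, 373, 480 and 425 in Slit2-non-IR and 320, 464 and 409 in Slit2-IR libraries. All groups overlapped, and the low values were libraries numbered 1 in all groups but C57-IR. The IR difference was 0.02 ± 0.16 in C57BL/6J and -0.11 ± 0.16 in Slit2-Tg hearts. The genotype difference was -0.02 ± 0.16 without IR (95% interval -0.38 to 0.34) and -0.15 ± 0.16 after IR (-0.51 to 0.21), with adjusted p-values of 1 (limma). Intervals of this width do not show that the levels were equal.

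Within groups, the endothelial carriers Fabp4 and Fabp5 varied together from library to library, with an r of 0.94 for deviations from the group means. Fabp4 had FPKM of 168, 222 and 154 in C57-non-IR, 96.9, 150 and 174 in C57-IR, 98.7, 141 and 165 in Slit2-non-IR and 87.1, 180 and 148 in Slit2-IR libraries. Fabp5 had 8.43, 11.3 and 10.4, then 6.06, 11.9 and 14.3, then 6.16, 10.2 and 11.9, and then 6.2, 12.2 and 11.7 FPKM in the same order. Library 1 was the lowest of its group for Fabp5 in all 4 groups and for Fabp4 in all but C57-non-IR, and all groups overlapped for both genes. The IR difference of Fabp4 was -0.39 ± 0.30 in C57BL/6J and 0.00 ± 0.30 in Slit2-Tg hearts, and that of Fabp5 0.03 ± 0.32 and 0.07 ± 0.32. Slit2-Tg minus C57BL/6J differences of Fabp4 were -0.44 ± 0.30 without IR (95% interval -1.09 to 0.22) and -0.04 ± 0.30 after IR (-0.70 to 0.61). Those of Fabp5 were -0.12 ± 0.32 (-0.82 to 0.59) and -0.07 ± 0.32 (-0.77 to 0.64), and all 4 adjusted p-values were 1 (limma). With the endothelial marker level as a covariate the difference without IR was -0.06 for Fabp4 and 0.29 for Fabp5, and without the libraries numbered 1 it was -0.27 and 0.02.

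**Figure D2:**
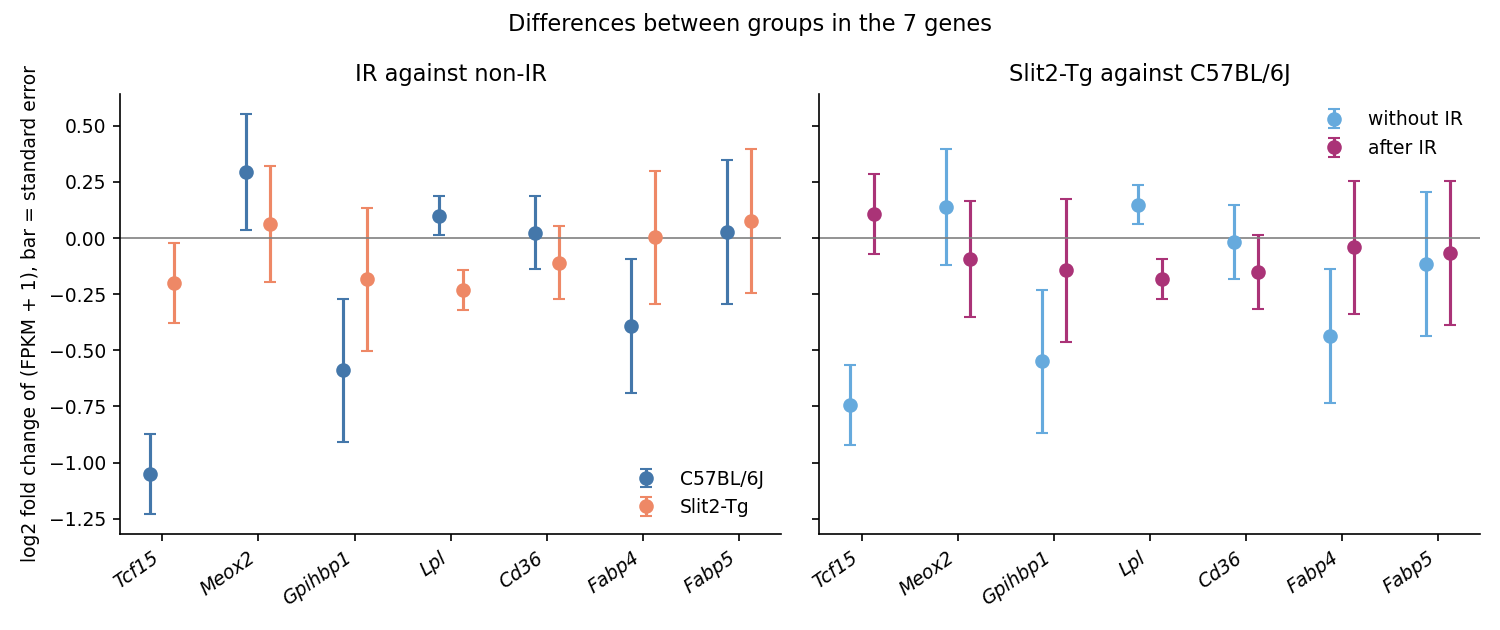
Log2 fold change of (FPKM + 1), y axis, of the 7 genes for IR against non-IR hearts in each genotype (left) and for Slit2-Tg against C57BL/6J hearts in each condition (right), with bars of 1 standard error from the fit of 12 libraries. The IR difference of Tcf15 was -1.05 in C57BL/6J and -0.20 in Slit2-Tg hearts, and Lpl has opposite signs in the 2 genotypes.

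Of the 7 genes, 0 passed an adjusted p of 0.05 in any comparison of Slit2-Tg with C57BL/6J hearts (limma's moderated test, Benjamini-Hochberg over all genes). Without IR this share stands beside a background of 0.0393% of all tested genes called, after IR beside 0.0459%, for the mean of both conditions beside 0.131% and for the interaction beside 0%. At an unadjusted p under 0.05 the counts were 1 without IR (Tcf15, background 3.18%), 0 after IR (3.16%), 1 for the mean of both conditions (Tcf15, 4.11%) and 2 for the interaction (Tcf15 and Lpl, 1.85%). Nothing is read from Tcf15 in these counts, because the C57-non-IR libraries that enter the 3 comparisons in which it is counted, and for the interaction the C57-IR libraries too, led to the choice. limma-voom on the recovered reads also called 0. In IR against non-IR hearts 1 of 7, Tcf15, was past the threshold in C57BL/6J (background 0.439%) and for the mean of both genotypes (3.48%) and 0 in Slit2-Tg (0.505%), and nothing is read from these counts because the choice used this contrast. Groups without overlap were seen for 2 of 7 genes in Slit2-non-IR against C57-non-IR hearts (Tcf15 lower, Lpl higher, background 9.18%). The same held for 1 of 7 in Slit2-IR against C57-IR hearts (Lpl lower, background 6.47%), 3 of 7 in C57-IR against C57-non-IR hearts (background 13.8%) and for 1 of 7 between the 2 Slit2-Tg groups (background 17%). The comparisons with a shared group are not independent of each other.

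The 7 genes fell into those that followed the endothelial marker level of their library and those that did not. Deviations from the group means over the 12 libraries, on the log2 scale, were correlated with the mean of the 24 endothelial markers with r of 0.93 for Gpihbp1, 0.92 for Fabp5, 0.91 for Fabp4 and 0.88 for Meox2. The r was 0.35 for Cd36, 0.19 for Tcf15 and -0.49 for Lpl. Fabp4 and Gpihbp1 tracked each other at r of 0.97 and Fabp4 and Fabp5 at 0.94, whereas Tcf15 and Meox2 had an r of -0.19. These are descriptions over 12 points that share library preparation and depth scaling, and the libraries numbered 1 carry much of the range on the x axis. The same deviations of Cd36 had an r of -0.77 with the mean of 12 cardiomyocyte markers and 0.68 with 15 macrophage markers, and those of Tcf15 0.42 and -0.53. For Gpihbp1, Fabp5, Fabp4 and Meox2 the r with the cardiomyocyte markers were -0.57, -0.81, -0.67 and -0.69. With the macrophage markers they were 0.61, 0.83, 0.73 and 0.75, so these genes did not follow the endothelial level alone.

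**Figure D3:**
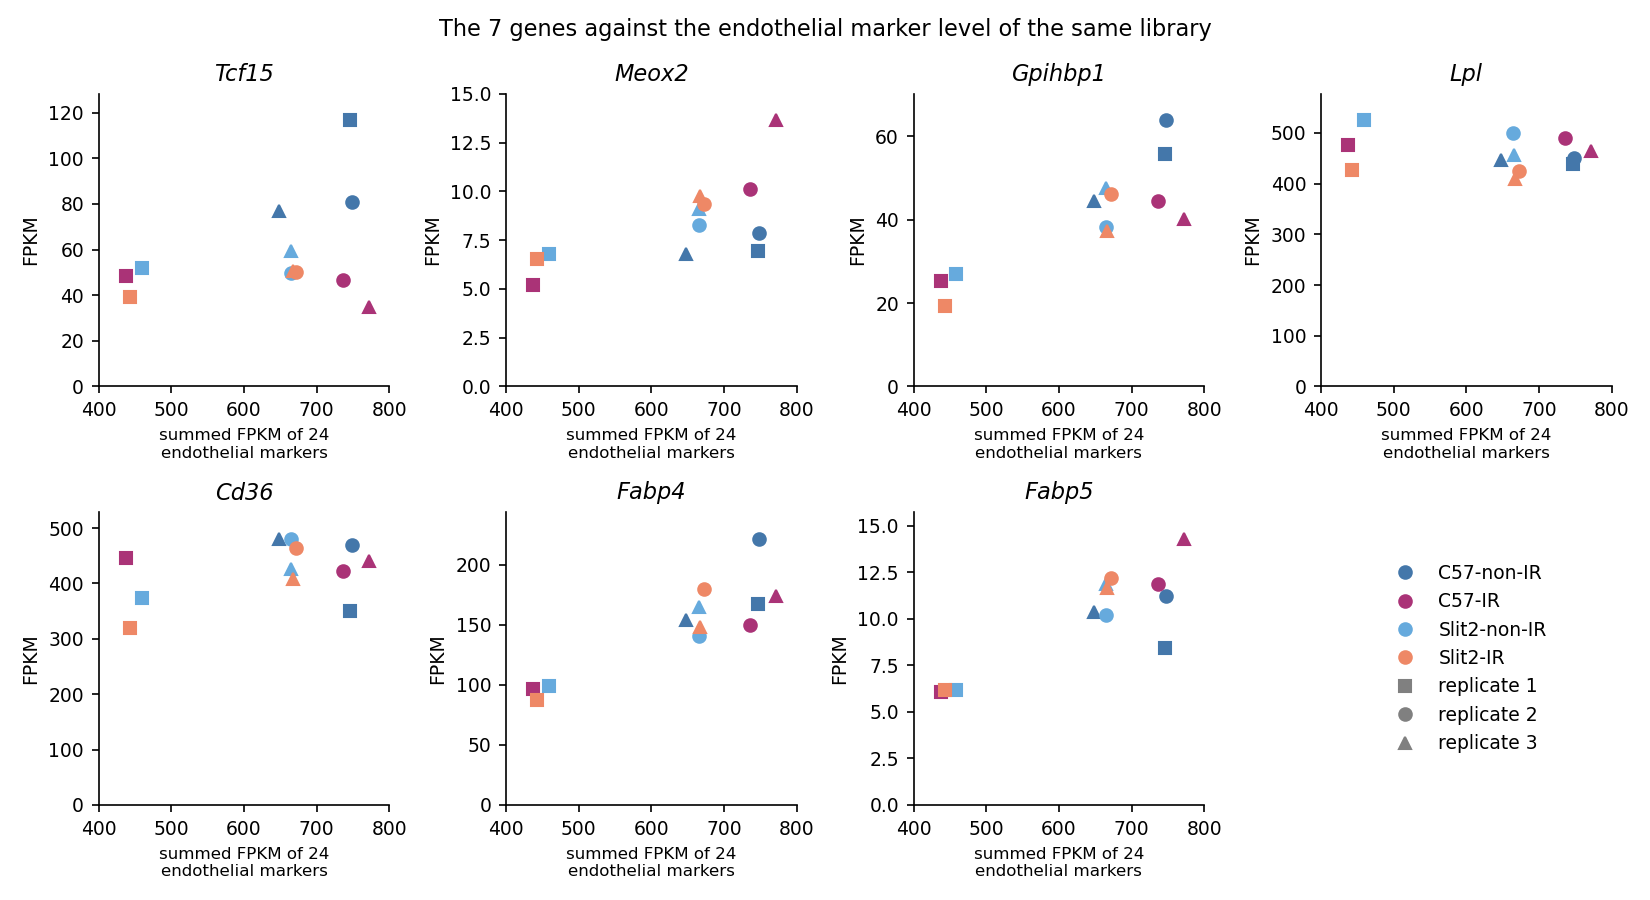
FPKM of each of the 7 genes (y axis, from 0) against the summed FPKM of 24 endothelial markers in the same library (x axis, not from 0), with colour for the group and shape for the replicate number. Gpihbp1, Fabp4 and Fabp5 are lowest in the 3 libraries with endothelial sums of 437 to 459, while Tcf15 is highest in the C57-non-IR libraries and Lpl shows no rise along the axis.

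Expressed relative to the mean endothelial marker (a difference of log2 values), Tcf15 stood at 2.23 ± 0.26 in C57-non-IR, 1.31 ± 0.53 in C57-IR, 1.74 ± 0.25 in Slit2-non-IR hearts, with 1.46 ± 0.08 in the Slit2-IR group (SD, n = 3). Its relative IR difference was thus -0.92 in C57BL/6J and -0.28 in Slit2-Tg hearts. Gpihbp1 had relative IR differences of -0.46 and -0.26, and Fabp4 of -0.25 and -0.07. Over both conditions, Slit2-Tg minus C57BL/6J on this relative scale was between -0.20 (Gpihbp1) and 0.18 (Meox2) for the 7 genes. Its exact permutation p-values, with labels exchanged within each condition, were 0.17 to 0.745 in 7 two-sided tests, each without adjustment. Nothing is read from the test of Tcf15, whose values led to the choice. The mean over conditions joins unlike differences. Without and after IR they were -0.49 and 0.15 for Tcf15, 0.42 and -0.05 for Meox2, and 0.41 and -0.14 for Lpl. For Cd36 they were 0.25 and -0.11, for Fabp5 0.13 and -0.03, for Fabp4 -0.18 and 0.00, and for Gpihbp1 -0.30 and -0.11.

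The gene most like Tcf15 over the 12 libraries was Rarg, a retinoic acid receptor, with an r of 0.92 on log2(FPKM + 1). Ip6k2 and Plcg1 (phospholipase C gamma, which acts below growth factor receptors) followed at 0.91, and Pnkd and Gimap1 at 0.89. None of the 10 most alike was another member. For deviations from group means the 10 most alike were led by Zgrf1, Rpl7a-ps5 and Cav3, at r of 0.93, 0.92 and 0.91. Meox2 was most like Pparg over the 12 libraries (r of 0.93), the nuclear receptor that drives fatty acid handling genes, and by deviations most like Acvrl1 and Cav1, both of endothelium, at 0.98. Such values are the highest over all tested genes and describe these libraries.

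The other genes of the pathway were counted in 3 lists: regulators of the lipase and lipoprotein uptake, fatty acid uptake and binding genes, and transcription factors and signals around the dimer. Of these, 11 of 16, 17 of 26 and 34 of 34 genes were tested. In the comparisons of Slit2-Tg with C57BL/6J hearts, without IR, after IR and over both, and in the interaction, limma called 0 genes of the 3 lists past the adjusted threshold, against the backgrounds given above. Unadjusted p-values under 0.05 were seen without IR for Notch4 (-0.57), after IR for Ppargc1a (-0.67) and Tcf3 (0.36), over both for Acsl3 (0.32), and in the interaction for Ppargc1a (-0.77), Notch4 (0.65) and Tcf3 (0.39). The list medians were between -0.06 and 0.08 in the 3 genotype comparisons, and 0.10, -0.03 and 0.10 in the interaction, where the median of all genes was 0.00 in each.

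After IR, 2 genes of the lipase list rose over the mean of both genotypes (background 3.48%), of which Lipg is described here, and 0 of the other 2 lists passed the threshold. Lipg encodes endothelial lipase, a relative of Lpl that is made by endothelial cells. It had 0 to 2 reads in the 6 non-IR libraries, 3, 11 and 12 in the C57-IR and 15, 14 and 14 in the Slit2-IR libraries. The nearest libraries of the C57BL/6J groups had 2 and 3 reads. The difference of Lipg was 0.18 ± 0.03 with an adjusted p of 0.00855 (limma). The fold is compressed by the pseudocount at FPKM under 0.2. Lipg had enough reads to be tested only through the IR libraries, where it is high, so nothing is read from its adjusted p-values. In Slit2-Tg hearts alone the adjusted p of Lipg was 0.0501. Hes1 and Id1, named after their values were seen, had adjusted p-values there of 0.114 (0.89) and 0.375 (-1.37), which became 0.0118 and 0.0478 in a fit blocked on replicate number. Hes1 is a Notch target and Id1 an inhibitor that binds bHLH partner proteins. Id1 was the second most abundant regulator, with FPKM of 16.8 to 88.3 in the 6 IR and 70.8 to 175 in the 6 non-IR libraries.

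In the lists without a gene past the threshold, the genes of highest level are given. Fabp3, the cardiomyocyte fatty acid binding protein, ranged from 3431 to 4425 FPKM over the 12 libraries. Dgat2, which makes triglycerides, had group means of 155 in C57-non-IR, 143 in C57-IR, 164 in Slit2-non-IR and 146 in Slit2-IR hearts. Vegfb, a signal from cardiomyocytes that acts on endothelial fatty acid transport, ranged from 134 to 199 FPKM. Fabp3, Dgat2 and Vegfb did not pass the threshold in any contrast.

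Of the 24 endothelial markers, 0 passed the threshold in any of the 7 contrasts. Their median difference was -0.18 for IR in C57BL/6J (19 of 24 lower), 0.01 for IR in Slit2-Tg (10 lower), -0.23 for Slit2-Tg without IR (22 lower) and -0.05 for Slit2-Tg after IR (14 lower). Without the 4 libraries numbered 1 these medians were 0.04, 0.00, -0.06 and -0.06. For IR over the mean of both genotypes, other settings called Cldn5, a tight junction protein, higher (without those libraries), Sox17 higher and Sox18 lower, both endothelial transcription factors (replicate block), Sox18 lower (total-read scaling), and all 3 (endothelial covariate, which also called Cldn5 for IR in C57BL/6J). The most abundant markers, Ly6c1 and Cdh5, had group means of 81.8 to 144 and 55.3 to 64.7 FPKM. Of 15 adipocyte markers 13 were tested, 0 passed (Plin4 and Cidea, of highest level, had group means of 28.9 to 39.1 and 18.6 to 22.1 FPKM), and their medians for the same comparisons were 0.17, -0.11, 0.18 and -0.14. The adipocyte sums were 72.9 to 111 FPKM and overlapped in all 4 comparisons, but they are carried by Plin4, Cidea, Thrsp and Aqp7. The low markers Cfd, Adipoq, Cidec, Plin1, Retn and Car3, named after their values were seen, moved apart from that sum. Summed, these 6 had FPKM of 0.0410, 1.43 and 0.595 in C57-non-IR, 0.205, 19.2 and 21.4 in C57-IR, 1.56, 8.13 and 10.8 in Slit2-non-IR and 13.2, 2.29 and 0.976 in Slit2-IR libraries. The Slit2-non-IR libraries were all above the C57-non-IR libraries, with 1.56 against 1.43 at the nearest libraries, and the other 3 comparisons overlapped. These 6 were picked because they passed as higher for IR in C57BL/6J without the libraries numbered 1, so nothing is read from that or from their sums. In that setting 9 of the 13 tested markers were higher for IR in C57BL/6J and 4 were lower. In the same setting Retn passed for IR over both genotypes, but the genotypes went opposite ways. Its reads were 0 and 0 in C57-non-IR and 27 and 24 in C57-IR libraries. They were 6 and 13 in Slit2-non-IR and 3 and 3 in Slit2-IR libraries, so nothing is read from this call. Cfd, an adipocyte protease, passed in that setting as lower for Slit2-Tg after IR and in the interaction. The libraries left out lay the other way, at 6.52 FPKM in Slit2-IR replicate 1 and 0.0621 in C57-IR replicate 1. With them the 2 IR groups overlapped for Cfd, so nothing is read from these calls. With the mean adipocyte marker level as a covariate, the IR difference in C57BL/6J hearts was 0.11 for Lpl, 0.05 for Cd36 and -0.55 for Fabp4, and the Lpl interaction was -0.35. Thrsp (replicate block, total-read scaling) and Aqp7 (endothelial covariate) were also called lower after IR. The macrophage, cardiomyocyte, fibroblast and mural, atrial and blood lists also had 0 genes past the threshold in these contrasts, and Tcf21, of the fibroblast and mural list, passed as higher for IR over both genotypes without the libraries numbered 1, with the block and with the endothelial covariate. The part of these cell types in the members' values was not tested beyond the covariate fits given above.

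**Figure D4:**
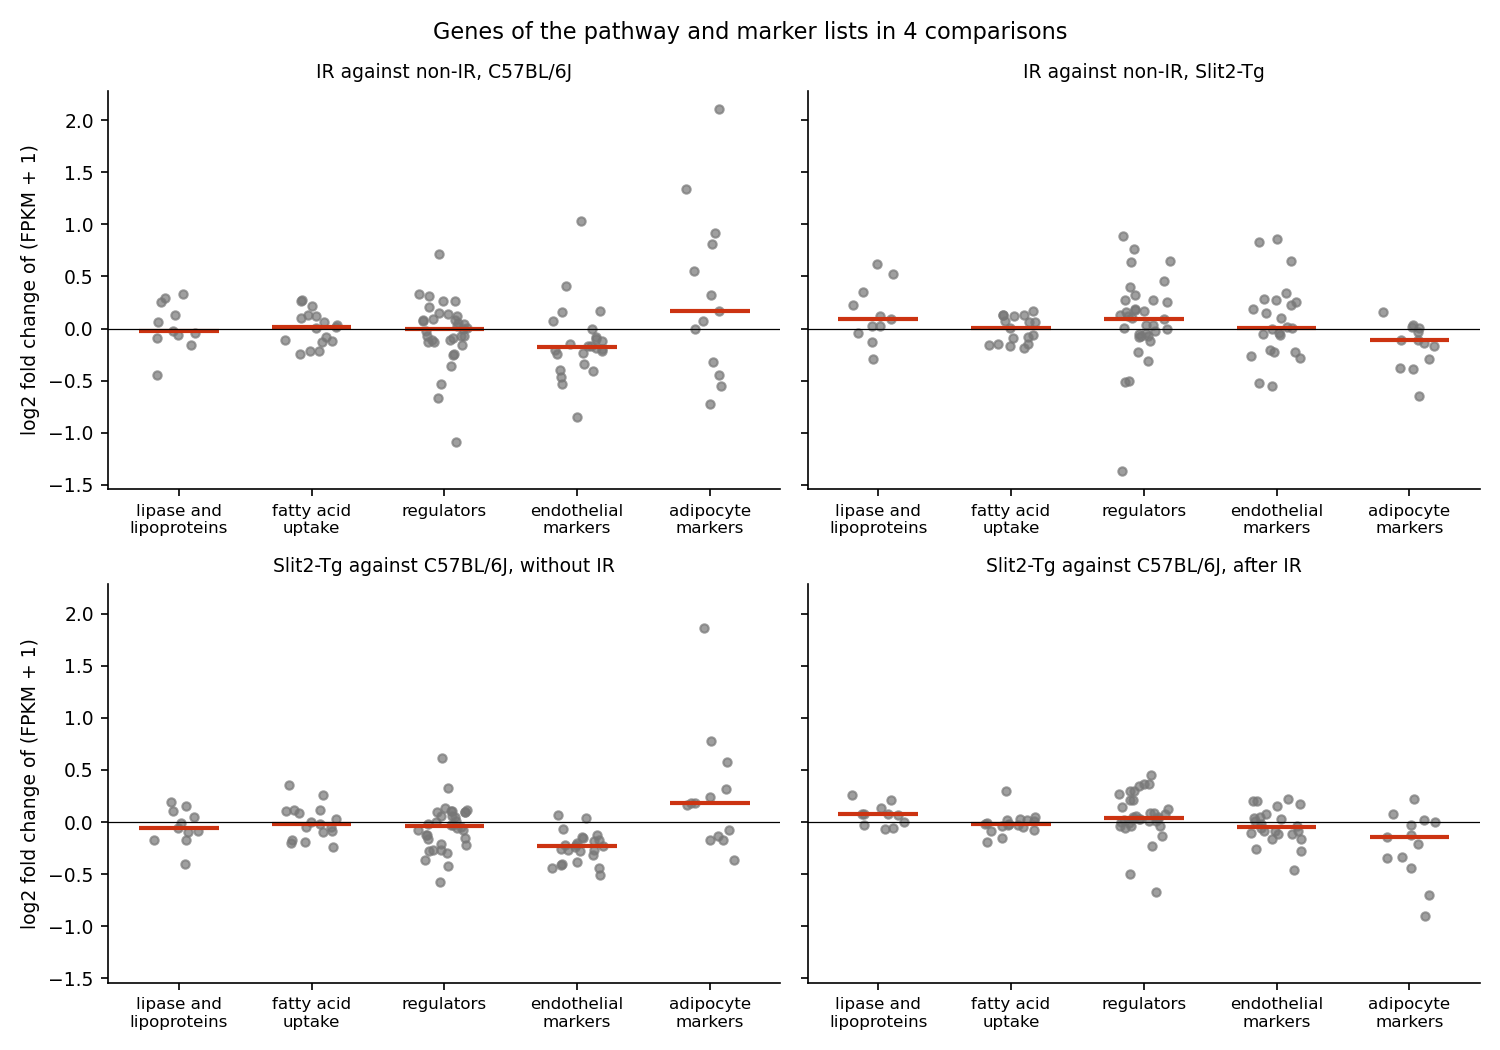
Log2 fold change of (FPKM + 1), y axis, of each tested gene (points) of 3 pathway lists and the endothelial and adipocyte marker lists (x axis) in 4 comparisons, with a red line at the list's median. The endothelial median lies at -0.18 for IR in C57BL/6J and -0.23 for Slit2-Tg without IR, and at 0.01 for IR in Slit2-Tg and -0.05 for Slit2-Tg after IR.

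The genes around Tcf15 and Gpihbp1 were counted as their chromosomal background. Within 1 Mb of Tcf15 there were 28 tested genes, of which 0 passed the threshold in Slit2-Tg against C57BL/6J hearts without IR (1 had an unadjusted p under 0.05, and it was higher), with a median difference of -0.10. The nearest on either side, Srxn1 and Rps15a-ps7, differed by -0.08 and -0.09. Within 1 Mb of Gpihbp1 there were 46 tested genes with 0 past the threshold and a median of -0.03. Its nearest tested neighbours were Zfp41 (0.04) and, on the other side, Ly6c1 (-0.31), an endothelial marker of the Ly6 family to which Gpihbp1 belongs.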

How the data were processed

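The authors aligned paired-end reads with HISAT2 to mm10, per the submitters' processing notes, and deposited FPKM values per gene for each of 12 libraries in 4 groups. The counting tool, annotation release and strand setting are not given in the sources used here. In the deposited FPKM, 100% of values were whole multiples of 1 read (tolerance 0.01), so that reads were recovered, and the scaling was that of median-of-ratios size factors. The 7 members and all gene lists were chosen with earlier results of these data known.

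Genes that reached, in 3 or more libraries, a level worth 10 reads at median depth, and 15 reads in all (15258 of 52858) were fitted on log2(FPKM + 1) with limma 3.58.1 (R 4.3.3), moderated with a trend, over the 4 groups together (8 residual degrees of freedom), with Benjamini-Hochberg adjustment over all of them. Fold changes of low genes are understated on this scale. SE and intervals come from this fit, and SD from 3 libraries, which the labels call independent samples. Python 3.11.15 with pandas 2.3.3, numpy 2.4.6, scipy 1.17.1 and matplotlib 3.10.9 made the other values. On simulated data for Slit2-non-IR against C57-non-IR hearts, 200 of 200 genes changed 4-fold were recovered among 15258, with 8 false calls. The changed genes were well expressed, all genes had the same simulated dispersion, and the libraries numbered 1 were not set apart. The simulation therefore does not give the power for differences such as those of the members. No pair of libraries agreed within sampling noise.

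Named genes were the 7 members, list genes past an adjusted p of 0.05 (at most 4 for each list and contrast, otherwise the 2 of highest FPKM), the 10 genes most like Tcf15, the nearest neighbours of Tcf15 and Gpihbp1, and Slit2, and 1 list gene past the threshold is not reported here. Genes named for an unadjusted p or under another setting were chosen after their values were seen. Same-numbered libraries deviated together, with all 3 correlations over 0.1, between the 2 IR groups (0.285, 0.154 and 0.362) and between the 2 Slit2-Tg groups (0.291, 0.295 and 0.142). In each of the other comparisons, 1 of 3 was below 0.1. Alternatives were another pseudocount, other filters, total-read scaling, quantile normalization, limma-voom on recovered reads, only the libraries compared, a replicate block and each library left out. Endothelial or adipocyte marker covariates, and leaving out the 4 libraries numbered 1, were among them.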

Additional observations from a re-analysis of the deposited data

Results flagged for a closer look

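Lpl is listed here because all 3 C57-IR libraries were above the C57-non-IR libraries and all 3 Slit2-IR libraries were below the Slit2-non-IR libraries. The difference of the responses was -0.33 on the log2 scale, with an unadjusted p of 0.022 and an adjusted p of 1 (limma), so it did not pass the threshold. With total-read scaling the C57BL/6J groups overlapped.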

How the results depend on the processing

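The direction of Tcf15 for IR in C57BL/6J hearts was the same under all 23 alternatives (-1.16 to -0.86), but its call was lost under 11 of them. Tcf15 was chosen by its values in this contrast, so its steady direction is no support. The count of members called there fell from 1 to 0 with no filter beyond 1 read, with only the libraries compared and with the adipocyte covariate, and was 0 to 1 with single libraries left out (0 without any C57-non-IR or Slit2-non-IR library, or C57-IR replicate 2 or 3). For IR over the mean of both genotypes it was 0 with no filter and 0 to 1 with libraries left out (0 without Slit2-non-IR replicate 3 or Slit2-IR replicate 1). The adjusted p of Tcf15 for genotype without IR was 0.559 to 1 over 23 alternatives. For the 3 pathway lists and IR in Slit2-Tg, the count of 0 became 1 with a pseudocount of 0.1, quantile normalization, voom or either covariate (Lipg) and without the 4 libraries numbered 1 (Hes1), 2 with the replicate block (Hes1 and Id1), and 0 to 1 with libraries left out (1 without C57-IR replicate 1 or 2). For IR over the mean of both genotypes the count of 2 became 1 with a pseudocount of 0.1, no filter, total-read scaling or the adipocyte covariate (Lipg) and with 10 reads in every library, 5 with the replicate block or the endothelial covariate (adding Hes1, Id1 and Tcf21), 4 without the libraries numbered 1, and 1 to 4 with libraries left out (4 without C57-IR replicate 1). Nothing is read from Lipg in these counts, for the reason given above. The replicate block changed no call of a member, and the causes were not tested. Over all genes, IR calls over both genotypes split into 356 higher and 175 lower, and 276 and 305 with total-read scaling, and in Slit2-Tg 65 and 12, and 37 and 13.

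In the genotype comparisons and the interaction, signs turned for members that did not pass the threshold. With the endothelial covariate Cd36 without IR was 0.05, Fabp4 after IR 0.02, and Fabp5 0.29 without IR, 0.14 over both conditions and -0.30 in the interaction. With the adipocyte covariate Cd36 without IR was 0.00, Fabp4 after IR 0.07, Fabp5 after IR 0.09, and Meox2 0.06 after IR, -0.04 without IR and 0.09 in the interaction. With quantile normalization Cd36 without IR was 0.05 and Lpl over both conditions 0.01. Without the 4 libraries numbered 1, Cd36 was 0.01 after IR and 0.08 in the interaction, Fabp4 0.01 after IR, Fabp5 0.02 without IR and -0.14 in the interaction, and Meox2 over both conditions -0.03. With single libraries left out, Cd36 ranged from -0.16 to 0.07 without IR and -0.25 to 0.01 in the interaction, and Fabp4 from -0.29 to 0.26 after IR. Fabp5 ranged from -0.40 to 0.21 after IR, -0.29 to 0.13 without IR, -0.26 to 0.05 over both and -0.28 to 0.33 in the interaction. Gpihbp1 after IR ranged from -0.40 to 0.21, Lpl over both from -0.04 to 0.01 and Tcf15 after IR from -0.04 to 0.23. Meox2 ranged from -0.44 to 0.18 after IR, -0.15 to 0.16 over both and -0.58 to 0.04 in the interaction. For IR against non-IR hearts, signs also turned over the alternatives. In Slit2-Tg hearts Gpihbp1 ranged from -0.44 to 0.17, Fabp4 from -0.22 to 0.30 and Fabp5 from -0.17 to 0.36. Cd36 ranged there from -0.24 to 0.04 and Meox2 from -0.04 to 0.23. In C57BL/6J hearts Fabp5 ranged from -0.20 to 0.36 and Cd36 from -0.14 to 0.11. Over both genotypes Fabp5 ranged from -0.07 to 0.22 and Cd36 from -0.16 to 0.03. With 3 hearts a group, differences of this size could not be told from 0.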
